A study of Homo sapiens with 17 samples.

Results

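The 10 MAGE tumour antigen genes described here are MAGEA1, MAGEA3, MAGEA4, MAGEA6, MAGEA10, MAGEA12, MAGEB2, MAGEC2, MAGED1 and MAGED2, which are 10 of the 26457 RefSeq genes in an mRNA-seq table of SW480 cells. They were chosen by gene symbol and were also selected on measured values: MAGEB2 was picked because it was silent in control cells and present in cells depleted of p53, and it was set against other germline-type members and against the widely expressed MAGED1 and MAGED2. The levels of these 10 genes in depleted against control cells are therefore given as a description with no test. Their responses to TNF-α did not enter the choice and were tested.

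SW480 is a human colon cancer line that carries a mutant p53, and the study asked how mutant p53 changes the response of such cells to long exposure to the inflammatory cytokine TNF-α. The cells stably carried a doxycycline-inducible short hairpin RNA against p53 (shp53, called depleted cells after the hairpin they carry) or against the bacterial gene LacZ (shLacZ, called control cells). All 4 groups were cultured in DMEM with 10% fetal bovine serum, 1.5 µg/ml puromycin and 1 µg/ml doxycycline, and received TNF-α at 12.5 ng/ml for 0 h (untreated) or 16 h. Each group of control cells at 0 h, control cells at 16 h, depleted cells at 0 h and depleted cells at 16 h had 2 biological replicates, A and B. Depleted and control cells were separate stable lines, so an effect of the hairpin and any other difference between the lines cannot be told apart.

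Proteins of the MAGE family share a homology domain, and many of them bind RING-type E3 ubiquitin ligases and change what these ligases act on. The type I genes (MAGEA, MAGEB and MAGEC) lie on the X chromosome, are normally expressed in male germ cells, are kept off in other tissues by DNA methylation and related repressors, and reappear in many tumours, where their peptides can be seen by T cells. The type II genes, MAGED1 and MAGED2 among them, are expressed in many normal tissues and are not germline antigens.

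The 8 libraries held between 6108488 reads (control 0 h B) and 13809578 reads (depleted 0 h A) on the listed genes. Values are reads on exons multiplied by 1 factor per library, called normalized reads below, and 1 read was worth 0.670 normalized reads in the deepest library and 1.51 in the shallowest. A count of 0 was taken to allow up to 3 reads, which is 2.01 to 4.54 normalized reads depending on the library. These floors cover counting error only. The intervals of log2 changes come from the limma fit and rest on the spread between replicate libraries as limma estimates it. Tests were made by limma on the 14800 genes whose mean reached 2.5 normalized reads, and a gene was called at an adjusted p under 0.05 with a change of at least 2-fold. TNF-α was tested in each line (16 h over 0 h), depletion at each time (depleted over control), and the interaction, which is the depletion difference at 16 h less that at 0 h, by adjusted p alone. All 5 comparisons share libraries with one another.

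The 13 NF-κB target genes listed as a check of the treatment were called higher at 16 h in control cells in 13 of 13 cases and in depleted cells in 11 of 13 (12 by adjusted p alone), where 440 and 275 of all 14800 tested genes were called higher. Their median log2 changes were 4.01 (3.82 with 1 gene at its bound) and 2.89.

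Markers of colon epithelium were present in all libraries, with 10 of 11 genes read and CDX1 at 0. Their summed level was 72635 and 68085 normalized reads at 0 h in control cells, 56974 and 57069 in control cells at 16 h, 53063 and 52905 in depleted cells at 0 h and 42868 and 44001 in depleted cells at 16 h, and KRT8 gave 38.1% of it. Of 8 tested, 3 were called lower on depletion at each time, beside 15.4% of all tested genes called in either direction at 0 h (2285 of 14800) and 15.2% at 16 h (2255). These were VIL1 (log2 −5.49 and −5.6), ASCL2 (−1.9 and −2.5) and EPCAM (−1.29 and −1.06). The EPCAM call at 16 h was lost without control 16 h A, where the difference was −0.94. By limma adjusted p alone 6 of the 8 were lower and 1 was higher at 0 h, and 6 were lower and 2 higher at 16 h, where 3736 of all 14800 were lower and 4035 higher at 0 h and 3915 were lower and 3678 higher at 16 h. The higher ones were KRT19 (0.26 at both times) and, at 16 h, CDX2 (0.21). With TNF-α 4 were called lower in control cells, CDH1 (log2 −2.51), VIL1 (−2.1), ASCL2 (−1.48) and CDX2 (−1.07), and 3 in depleted cells, CDH1 (−2.15), VIL1 (−2.21) and ASCL2 (−2.09), beside 7.24% of all tested genes in control cells and 6.36% in depleted cells. By adjusted p alone 6 of the 8 were lower and 1, KRT19 (0.22), was higher in each line, where 2243 of all genes were lower and 1648 higher in control cells and 2506 were lower and 1451 higher in depleted cells. With median-ratio scaling 1933 of all genes were lower and 2017 higher in control cells. In depleted cells 2008 were then lower and 2059 higher. The VIL1 call in control cells was lost without control 0 h A (−2.01) or control 16 h B (−2.03) and with a pseudocount of 0.1 (−2.11), and that in depleted cells without depleted 16 h B (−0.92) and by edgeR (−1.63) and DESeq2 (−1.68). CDX2 was also called in depleted cells (−0.98) without depleted 0 h A (−1.01) or depleted 16 h B (−1.06).

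MAGEB2 (NM_002364; hg19, chromosome X, 30233675 to 30238206, forward strand, 1608 exon bases) encodes a germline-type MAGE protein. It had 0 reads at this depth in each of the 4 control libraries. In depleted cells at 0 h it had 111 normalized reads in A (166 reads) and 86.4 in B (63 reads), and at 16 h it had 111 in A (132 reads) and 99.96 in B (81 reads). All 4 depleted libraries were well above all 4 control libraries, which is the property MAGEB2 was chosen for, and the 2 times overlapped. The group means were 98.8 ± 17.6 normalized reads at 0 h and 105 ± 7.57 at 16 h (SD, n = 2). Set against the mean floor of the control libraries, MAGEB2 was at least 29.4-fold higher in depleted cells at 0 h and at least 29.4-fold higher at 16 h. Libraries of pooled cells cannot tell more cells with the transcript from more transcript per cell.

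Whether TNF-α moved MAGEB2 could be tested in depleted cells only, since control cells had no read. The log2 change from 0 to 16 h was 0.10 (SE 0.44, 95% interval −0.82 to 1.02, limma adjusted p 0.90), with both 16 h libraries lying between the 0 h ones. The interval reaches from a fall to a rise and does not show that TNF-α had no effect. With all control libraries at 0, the interaction of MAGEB2 only repeats this value and is not counted as a test. Per kb of exon MAGEB2 stood at 61.5 normalized reads at 0 h and 65.5 at 16 h in depleted cells, above 45.1% and 47.9% of all tested genes, whose medians were 76.4 and 71.9.

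The stretches before the start sites show how MAGEB2 differs in sequence from its silent neighbour MAGEB3, from the expressed MAGED1 and MAGED2 and from MAGEA3, and are printed for that reason. They are the 250 bases upstream of each RefSeq start on build GRCh38.p14, on the forward strand of chromosome X, with CG pairs, the sites of DNA methylation, in capitals. The table had an entry for 8 of the 10 genes, and MAGEA1 and MAGEA10 had no entry. The 7 stretches are MAGEB2 at chrX:30215313-30215562, MAGEB3 at chrX:30230407-30230656, MAGED1 start 1 at chrX:51802826-51803075, MAGED1 start 2 at chrX:51893373-51893622, MAGED2 start 1 at chrX:54807495-54807744, MAGED2 start 2 at chrX:54808096-54808345 and MAGEA3 at chrX:152698544-152698793.
MAGEB2: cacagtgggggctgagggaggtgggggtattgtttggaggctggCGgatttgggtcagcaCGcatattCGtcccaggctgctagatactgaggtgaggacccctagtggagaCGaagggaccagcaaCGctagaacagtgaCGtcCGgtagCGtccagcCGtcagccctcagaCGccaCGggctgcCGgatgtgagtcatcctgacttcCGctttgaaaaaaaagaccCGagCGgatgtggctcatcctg
MAGEB3: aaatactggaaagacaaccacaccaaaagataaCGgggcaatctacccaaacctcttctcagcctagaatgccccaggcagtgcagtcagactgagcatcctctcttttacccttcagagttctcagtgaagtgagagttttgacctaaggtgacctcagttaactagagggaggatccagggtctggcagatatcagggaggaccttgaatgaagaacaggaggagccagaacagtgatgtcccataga
MAGED1 start 1: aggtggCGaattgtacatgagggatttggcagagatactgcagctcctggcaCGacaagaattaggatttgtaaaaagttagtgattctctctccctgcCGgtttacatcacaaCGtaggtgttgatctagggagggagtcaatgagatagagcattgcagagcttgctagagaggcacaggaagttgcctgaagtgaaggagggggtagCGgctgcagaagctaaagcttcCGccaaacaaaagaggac
MAGED1 start 2: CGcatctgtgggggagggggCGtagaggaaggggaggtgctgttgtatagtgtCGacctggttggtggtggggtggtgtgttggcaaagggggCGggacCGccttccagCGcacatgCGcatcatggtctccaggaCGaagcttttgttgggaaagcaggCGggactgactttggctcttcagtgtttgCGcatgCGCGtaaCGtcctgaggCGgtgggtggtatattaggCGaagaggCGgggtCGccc
MAGED2 start 1: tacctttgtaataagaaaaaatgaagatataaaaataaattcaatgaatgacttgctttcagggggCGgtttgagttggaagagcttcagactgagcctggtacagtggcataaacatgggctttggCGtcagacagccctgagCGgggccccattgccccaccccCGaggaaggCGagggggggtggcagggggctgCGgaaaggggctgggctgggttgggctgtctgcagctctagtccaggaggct
MAGED2 start 2: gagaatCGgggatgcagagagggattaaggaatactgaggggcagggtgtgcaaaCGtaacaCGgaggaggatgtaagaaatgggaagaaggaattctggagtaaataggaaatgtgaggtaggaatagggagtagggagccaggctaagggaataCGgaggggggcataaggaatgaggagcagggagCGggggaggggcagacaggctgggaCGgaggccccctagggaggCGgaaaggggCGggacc
MAGEA3: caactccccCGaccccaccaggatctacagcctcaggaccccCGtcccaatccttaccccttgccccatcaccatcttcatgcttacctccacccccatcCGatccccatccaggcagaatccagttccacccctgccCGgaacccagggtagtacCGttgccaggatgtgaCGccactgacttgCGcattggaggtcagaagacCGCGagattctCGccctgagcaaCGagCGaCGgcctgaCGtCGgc

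MAGEB2 had 15 CG pairs in its 250 bases, and 57.1% of the 35116 promoters in the table had fewer, the median being 11 and the quartiles 3 and 23. MAGEB3 had 1 pair (6.1% had fewer), the starts of MAGED1 had 6 and 17, those of MAGED2 had 6 and 8, and MAGEA3 had 15. Which start of MAGED1 or of MAGED2 gave the reads was not tested. The number of CG pairs did not separate the transcribed genes from the silent ones, since MAGEA3, with as many pairs as MAGEB2, had no read. MAGEA6 (chrX:152769690-152769939, reverse strand) was 100% identical to MAGEA3 over this stretch. MAGEB2 matched the MAGED1 and MAGED2 stretches at 25.2% to 29.6% of positions. It matched those of the other listed germline-type genes at 20.4% to 30.8%. Bases were compared position by position without alignment, so stretches shifted against each other do not score as alike. The 2 stretches of MAGEA12, which overlap on the chromosome, matched at only 24.8%. These shares therefore cannot tell which genes the MAGEB2 stretch is closer to.

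Short motifs, given here as 1 strand reads them, were searched on both strands of the 44 stretches that 33 of the 38 MAGE family genes have in the table. The ETS core CGGAAG is in 16.5% of all promoters and was in 10 of the 44, with 1 copy in MAGEB2 and 1 in MAGED1 start 1. The E2F motif GGCGGGA is in 13.5% of all promoters and was in 7 of the 44, with 2 copies in MAGED1 start 2, 1 in MAGED2 start 2 and none in MAGEB2. The GC box GGGCGG is in 42.6% of all promoters and was in 22 of the 44, the E-box CACGTG is in 6.3% and was in 0, and TATAAA is in 10.7% and was in 1, MAGED2 start 1. The letters CGGATG, which were chosen after they were seen to occur 2 times in MAGEB2, are in 5.3% of all promoters. They were in 21 of the 44 family stretches and in 11 of the 15 that belong to the listed genes, and in no stretch of MAGED1 or MAGED2. Stretches of the MAGEA genes resemble one another, so these counts are not of independent sequences, and a match is a description of letters.

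MAGEB2 lies beside 3 other MAGEB genes on the short arm of the X chromosome, and the genes within 1 Mb of it were read for the same pattern. Of these 11 genes, 7 had no read in any library, among them the germline genes MAGEB3, MAGEB4 and MAGEB1, which lie 10.3, 21.9 and 23.6 kb away, and NR0B1, a nuclear receptor gene 84.3 kb away. The reads of MAGEB2 therefore did not extend to the MAGEB genes beside it. DMD had 4 reads in all.

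IL1RAPL1, a gene of the interleukin-1 receptor family, also differed between the lines (NM_014271; hg19, chromosome X, 28605681 to 29974017, forward strand). Its downstream end lies 259.7 kb from MAGEB2 on the other side. IL1RAPL1 starts at 28605681, outside the 1 Mb window. It had 2.18 and 6.06 normalized reads at 0 h in control cells (3 and 4 reads) and 20.3 and 27.03 at 16 h. Depleted cells had 58.3 and 68.6 at 0 h and 127 and 148 at 16 h. The groups did not overlap, every depleted library was above every control library, and within each line 16 h was above 0 h. The log2 depletion difference of IL1RAPL1 was 3.76 at 0 h (limma adjusted p 4.7e-08) and 2.5 at 16 h (adjusted p 7.1e-06), higher in both libraries each time. On depletion 15.4% of all tested genes were called at 0 h and 15.2% at 16 h. The log2 TNF-α change of IL1RAPL1 was 2.37 in control cells (limma adjusted p 3.6e-05) and 1.11 in depleted cells (adjusted p 0.022), beside 7.24% and 6.36% of all tested genes called. The second of these calls was lost without depleted 0 h A (0.99, adjusted p 0.15), depleted 0 h B (1.22, adjusted p 0.076), depleted 16 h A (1.21, adjusted p 0.060) or depleted 16 h B (1.00, adjusted p 0.14), with no filter (adjusted p 0.058) and with a pseudocount of 0.1 (adjusted p 0.055). The interaction of IL1RAPL1 was −1.26 (95% interval −2.28 to −0.24, limma adjusted p 0.22), and it passed only without control 0 h B (−1.83, adjusted p 0.031).

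On the far side, TAB3, an adaptor of the TAK1 kinase, had 397, 362, 374 and 384 normalized reads in the control libraries and 511, 514, 504 and 513 in the depleted ones. All depleted libraries were above all control libraries, by a log2 difference of 0.43 at 0 h (limma adjusted p 0.00051) and 0.42 at 16 h (adjusted p 0.00067), which is under 2-fold. By adjusted p alone 7771 of all 14800 tested genes differed on depletion at 0 h, 4035 of them higher. At 16 h 7593 differed, 3678 of them higher. GK, which encodes glycerol kinase, ran from 7.57 to 19.2 normalized reads over the 8 libraries, and no test of it passed in limma. The 50 tested genes nearest to MAGEB2, over 25.7 Mb, had a median log2 depletion difference of 0.20 at 0 h and 0.15 at 16 h, and the 469 tested genes of chromosome X had 0.12 and 0.02. That window reaches far beyond the 3 tested genes within 1 Mb, IL1RAPL1, GK and TAB3, which all lay above the chromosome's median at both times, GK (0.59 and 0.15) without passing the test.

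**Figure D1:**
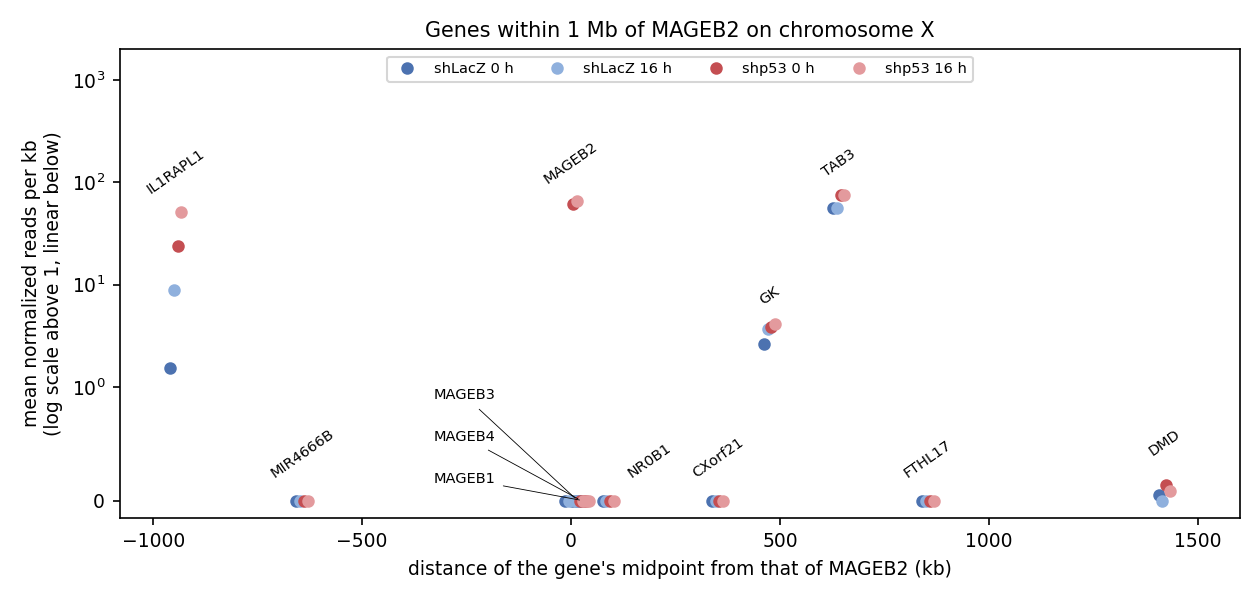
Mean normalized reads per kb (vertical axis, log scale above 1) of MAGEB2 and the 11 genes within 1 Mb of it, by the distance between gene midpoints in kb, for the 4 groups of 2 libraries. MAGEB2 stands at 61.5 and 65.5 in depleted cells and at 0 in control cells, MAGEB3, MAGEB4 and MAGEB1 at 0 in all groups, and IL1RAPL1 rises across the 4 groups.

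The other germline-type genes on the list gave almost no reads. MAGEA1, MAGEA3, MAGEA4, MAGEA6 and MAGEA10, all classical antigens shown to T cells, had 0 reads in all 8 libraries, so each was at most at the floor of 2.01 to 4.54 normalized reads per library. MAGEA12, a close relative of them, had 1 read in each depleted library at 16 h and none elsewhere. MAGEC2, which binds the ligase partner TRIM28, had 1 read in depleted 0 h B and 1 in depleted 16 h B. Reads of MAGEA12 and MAGEC2 were at or under the floor, so no difference between groups was detectable at this depth. Around these genes the nearest 50 tested genes had median log2 depletion differences at 0 h of −0.30 for MAGEA1, −0.29 for MAGEA3, MAGEA6 and MAGEA12, −0.19 for MAGEA10, −0.08 for MAGEA4 and 0.11 for MAGEC2.

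Whether a 50-base read could tell these genes apart was checked on GENCODE transcripts. All 50-base stretches of MAGEB2 (100%) and MAGED1 (100%) occurred in no other gene, and 99.8% of those of MAGED2 did. The share was 99.9% for MAGEC2, 99.3% for MAGEA1, 96.8% for MAGEA4, 91.4% for MAGEA12 and 82.4% for MAGEA10. It was 43.8% for MAGEA3 and 43.4% for MAGEA6, which share the rest mostly with each other, so a read from either can often not be placed. The 0 for MAGEA3 and MAGEA6 was therefore measured over less than the whole transcript.

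Over the whole family, the 26 type I genes gave 7 with a read and 19 with none. Among the 19, the share of read-length stretches found in no other gene was 0% for MAGEA2 and MAGEA2B. It was 5.7% for MAGEA9 and MAGEA9B. Reads from these genes could hardly be placed, so their lack of reads does not show that they were silent. MAGEB2 held nearly all of the type I reads in depleted cells, 95.1% of the summed level. The type I sum was 2.90 and 0 normalized reads at 0 h in control cells and 5.80 and 2.84 at 16 h, against 115 and 93.2 in depleted cells at 0 h and 115 and 106 at 16 h. MAGEB6, a relative on the same arm of the X chromosome, had 17 reads in all, 5 in control and 12 in depleted libraries. MAGEB17 had 10 reads, MAGEC1 had 1 and MAGEB18 had 1. Among the 6 type I genes with a read below the filter, none had more than 4 reads in 1 library, whereas MAGEB2 had at least 63 in each depleted library.

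**Figure D2:**
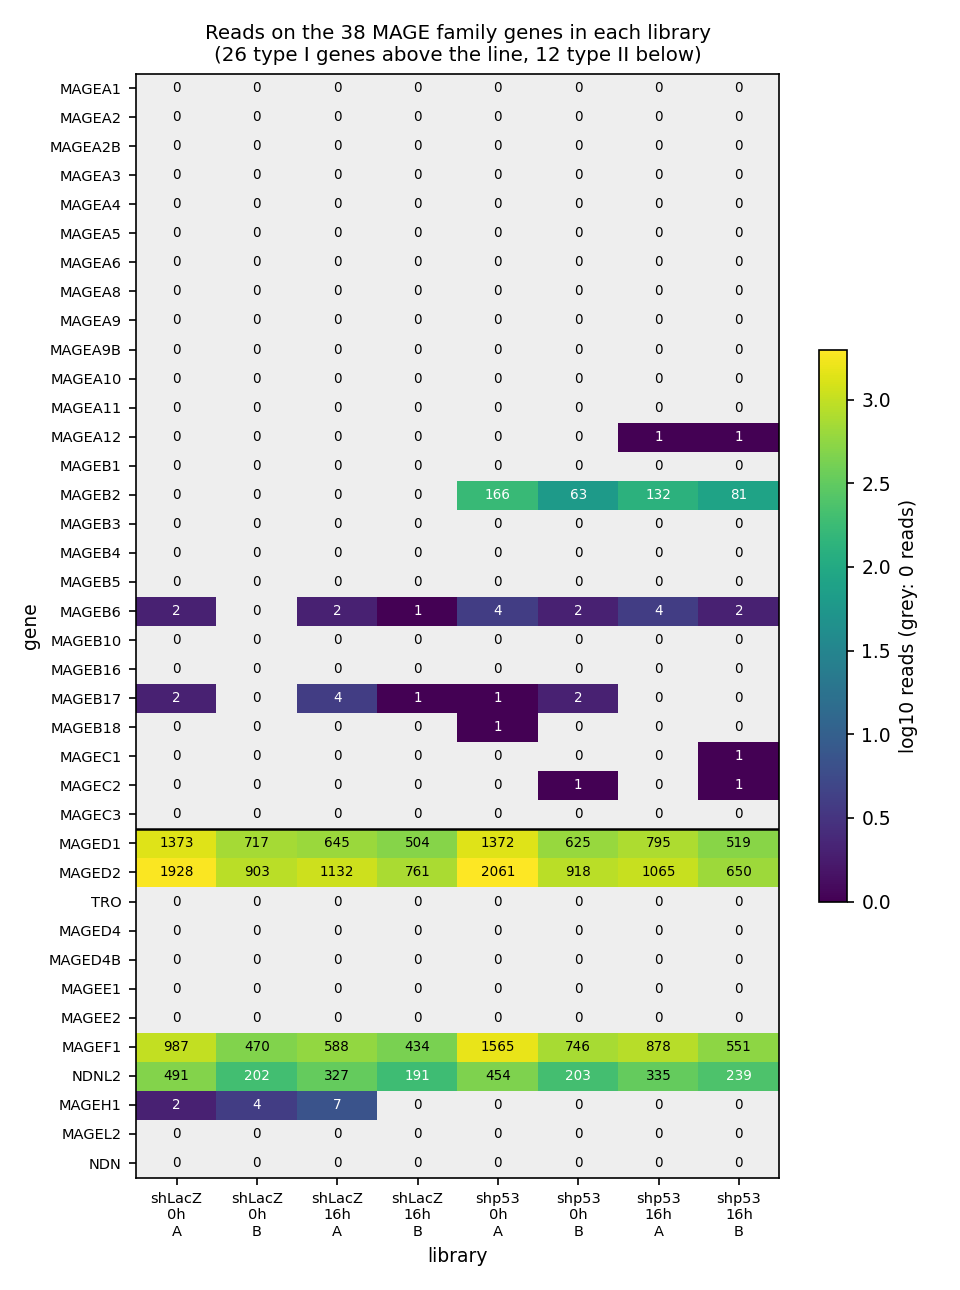
Reads on each of the 38 MAGE family genes (vertical axis) in each of the 8 libraries (horizontal axis), as numbers and as log10 colour, with the 26 type I genes above the line and the 12 type II genes below it. MAGEB2 has 63 to 166 reads in the depleted libraries and 0 in the control libraries, and MAGED1, MAGED2, MAGEF1 and NDNL2 are read in all 8.

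MAGED1 (NM_006986; hg19, chromosome X, 51636698 to 51645450, forward strand, 2729 exon bases), also known as NRAGE, encodes an adaptor that binds the neurotrophin receptor NGFR and netrin receptors of the UNC5 family. It had 996 and 1086 normalized reads at 0 h in control cells and 624 and 717 at 16 h. Depleted cells had 919 and 857 at 0 h and 667 and 640.5 at 16 h. In each line the 16 h libraries were below the 0 h libraries without overlap, and the lines overlapped at 16 h but not at 0 h, when control libraries were above depleted ones. The group means were 1041 ± 63.5, 670 ± 66.1, 888 ± 44.1 and 653 ± 18.4 (SD, n = 2), in the same order. TNF-α lowered MAGED1 by a log2 change of −0.64 in control cells (SE 0.09, 95% interval −0.82 to −0.46, limma adjusted p 1.6e-05) and −0.44 in depleted cells (SE 0.09, −0.62 to −0.26, adjusted p 0.00078), both in 2 of 2 libraries. These falls were under 2-fold. The interaction was 0.20 (95% interval −0.06 to 0.45, limma adjusted p 0.53), which does not show that the lines act alike. The depletion difference, given as a description, was −0.23 at 0 h and −0.03 at 16 h.

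MAGED2 (NM_014599; hg19, chromosome X, 54834771 to 54842448, forward strand, 2074 exon bases) encodes a protein needed for the salt transporters of the fetal kidney and linked to the Gs subunit encoded by GNAS. It had 1399 and 1368 normalized reads at 0 h in control cells and 1094 and 1083 at 16 h. Depleted cells had 1381 and 1259 at 0 h and 893 and 802 at 16 h. The 16 h libraries were below the 0 h libraries in both lines, and the depleted libraries were below the control ones at 16 h and overlapped them at 0 h. The group means were 1384 ± 22.1, 1088 ± 8.27, 1320 ± 86.5 and 847 ± 64.1 (SD, n = 2), in the same order. TNF-α lowered MAGED2 by a log2 change of −0.35 in control cells (SE 0.08, 95% interval −0.51 to −0.18, limma adjusted p 0.0024) and −0.64 in depleted cells (SE 0.08, −0.80 to −0.48, adjusted p 5.5e-06), both in 2 of 2 libraries. The interaction was −0.29 (SE 0.11, 95% interval −0.52 to −0.06) and did not pass correction (limma adjusted p 0.20), so the steeper fall of MAGED2 in depleted cells is not shown. As a description, the depletion difference was −0.07 at 0 h and −0.36 at 16 h.

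Of the 10 genes, 3 passed the filter on low values, MAGED1 and MAGED2 in all groups and MAGEB2 through depleted cells alone. TNF-α could be tested for MAGED1 and MAGED2 in both lines and for MAGEB2 in depleted cells. None of these was called, beside 7.24% of all tested genes (1072 of 14800) in control cells and 6.36% (941) in depleted cells. Over the 4 tested type II genes of the family the count was 0 in each line by limma, 0 by edgeR and 0 by DESeq2, with 3 in each line at an unadjusted p under 0.05. By adjusted p alone, MAGED1 and MAGED2 were lower at 16 h in both lines, where 15.2% of all genes (2243) were lower in control cells and 16.9% (2506) in depleted cells. With median-ratio scaling 1933 of all genes were lower and 2017 higher in control cells. In depleted cells 2008 were then lower and 2059 higher. By DESeq2 1297 of all genes were lower in control cells and 1351 in depleted cells. Depletion is the contrast that MAGEB2 was chosen on, so no call is counted for it.

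The interaction passed in neither MAGED1 nor MAGED2, beside 2.86% of all tested genes (424). Over the 4 tested type II genes it passed in 0 by limma, 0 by edgeR and 0 by DESeq2, and 2 had an unadjusted p under 0.05 (MAGED2 and MAGEF1). The count of 424 over all genes fell to 208 without depleted 0 h B, 233 without depleted 0 h A, 265 without depleted 16 h B and 278 without control 0 h A.

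Outside the list, 2 more type II genes were well expressed. MAGEF1 (NM_022149; hg19, chromosome 3, 184428155 to 184429836, reverse strand), a partner in a ubiquitin ligase that acts on iron-sulphur cluster assembly, had 716 and 712 normalized reads at 0 h in control cells and 568 and 617 at 16 h. Depleted cells had 1049 and 1023 at 0 h and 736 and 680 at 16 h. MAGEF1 was higher in depleted libraries than in control libraries at each time, and lower at 16 h than at 0 h in each line. The log2 depletion difference was 0.54 at 0 h (limma adjusted p 1.8e-05) and 0.26 at 16 h (adjusted p 0.012), the latter lost without control 16 h A (0.20, adjusted p 0.086) or depleted 16 h A (0.20, adjusted p 0.13). Its 50 nearest genes on chromosome 3 had medians of 0.68 and 0.66, above the difference of MAGEF1 itself. TNF-α changed it by −0.55 in depleted cells (limma adjusted p 4.5e-05) and by −0.27 in control cells (adjusted p 0.018). The second of these was lost without control 0 h A (−0.26, adjusted p 0.070), control 0 h B (−0.27, adjusted p 0.070) or control 16 h A (−0.21, adjusted p 0.11), and did not pass by DESeq2 (−0.23, adjusted p 0.14). The interaction was −0.28 (95% interval −0.52 to −0.04, limma adjusted p 0.25).

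NDNL2, now called NSMCE3, a subunit of the SMC5/6 complex that repairs DNA, had 356 and 306 normalized reads at 0 h in control cells, 316 and 272 at 16 h, and 304 and 278 in depleted cells at 0 h and 281 and 295 at 16 h. The 16 h libraries overlapped the 0 h ones in each line, and control libraries at 0 h were just above both depleted groups. The log2 depletion difference of NDNL2 was −0.18 at 0 h (limma adjusted p 0.20) and −0.03 at 16 h (adjusted p 0.87). Its log2 TNF-α change was −0.17 in control cells (limma adjusted p 0.31) and −0.02 in depleted cells (adjusted p 0.94). MAGEH1 had 13 reads, all in control libraries (2, 4, 7 and 0), and was not tested. The other 7 type II genes, among them the imprinted genes MAGEL2 and NDN, had no read. For MAGED4 and MAGED4B, also among the 7, the share of read-length stretches found in no other gene was 0%. Their lack of reads therefore does not show that they were silent.

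The 4 tested type II genes had a median log2 TNF-α change of −0.31 in control cells and −0.50 in depleted cells, where the median of all tested genes was −0.05 and −0.06. MAGED1, MAGED2 and MAGEF1 were lower at 16 h in both lines and NDNL2 did not pass. Rescaling the libraries by median ratios kept these directions and moved the median of all genes by less than 0.1. The median depletion difference of the 4 genes was −0.13 and −0.03, against 0.03 and −0.01 over all genes. The type II sum fell from 3470 and 3478 to 2609 and 2689 normalized reads in control cells and from 3653 and 3417 to 2576 and 2418 in depleted cells.

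**Figure D3:**
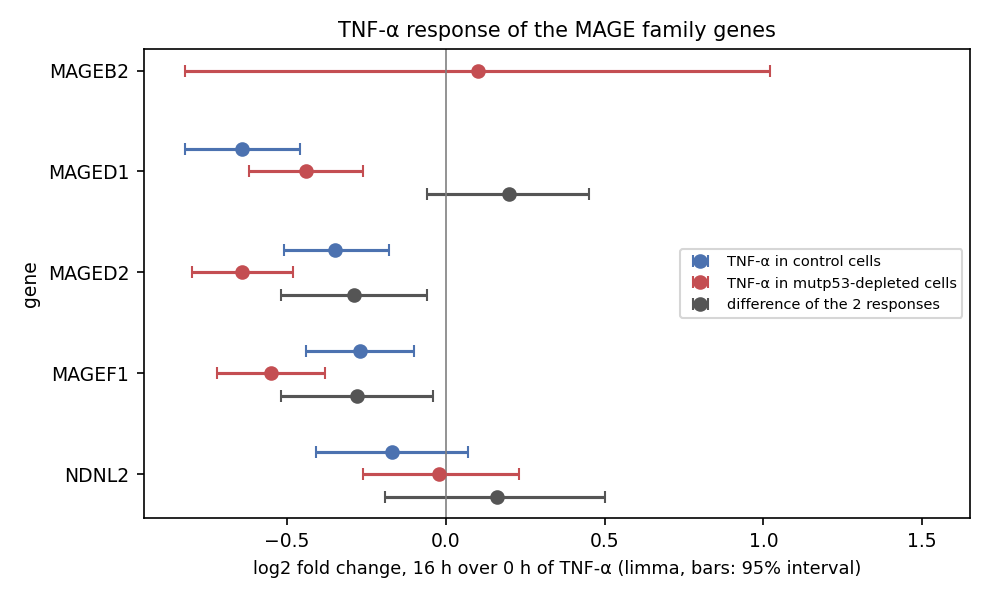
Log2 change from 0 to 16 h of TNF-α by limma (horizontal axis, bars for the 95% interval) for the tested MAGE family genes (vertical axis) in control and depleted cells. MAGED1 lies at −0.64 and −0.44, MAGED2 at −0.35 and −0.64 and MAGEF1 at −0.27 and −0.55, while MAGEB2 in depleted cells lies at 0.10 with an interval from −0.82 to 1.02.

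Levels were compared between genes per kb of exon. In control cells at 0 h the order was MAGED2 (667 normalized reads per kb), MAGEF1 (425), MAGED1 (382), NDNL2 (199) and MAGEB2 (0), and at 16 h it was the same with 525, 353, 246, 176 and 0. Neighbours in this order did not overlap between libraries at either time in control cells. In depleted cells at 0 h MAGED2 (636) and MAGEF1 (617) overlapped, followed without overlap by MAGED1 (325), NDNL2 (175) and MAGEB2 (61.5). At 16 h MAGEF1 (422) and MAGED2 (409) overlapped, followed by MAGED1 (240), NDNL2 (173) and MAGEB2 (65.5). The step from NDNL2 down to MAGEB2 in depleted cells was 2.85-fold at 0 h and 2.64-fold at 16 h. MAGED2 stood above 92.6% of tested genes in control cells at 0 h and above 86.4% in depleted cells at 16 h, and MAGED1 above 85.3% and 77.0%.

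**Figure D4:**
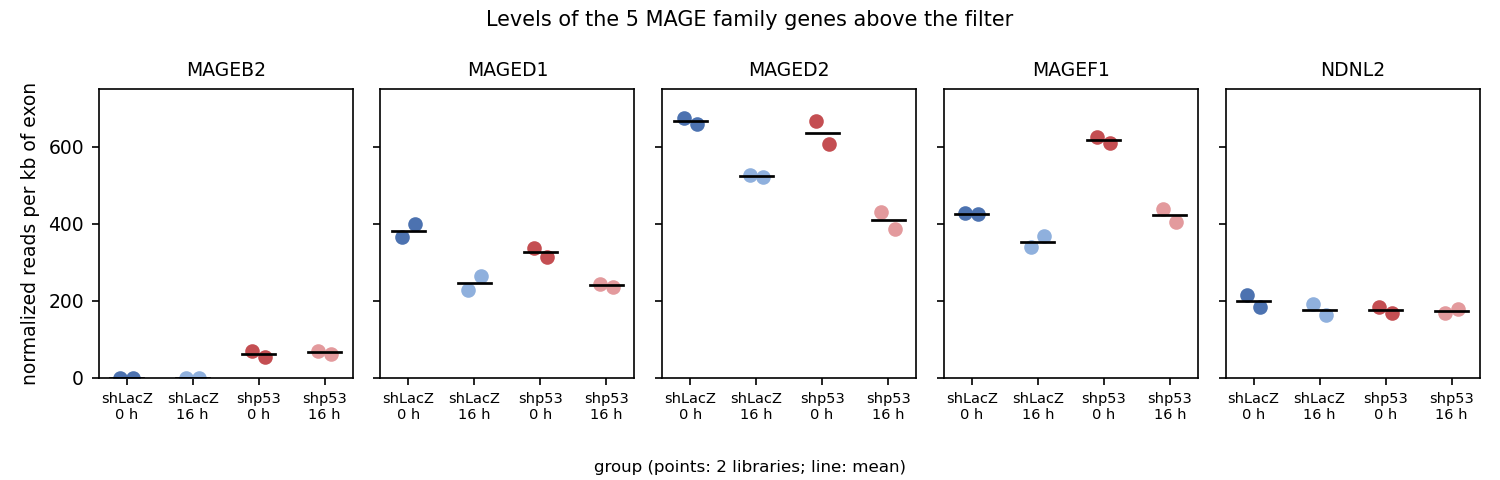
Normalized reads per kb of exon (vertical axis) of the 5 tested MAGE family genes in the 4 groups (horizontal axis), with points for the 2 libraries and a line for the mean. MAGED2 runs from 667 in control cells at 0 h to 409 in depleted cells at 16 h, and MAGEB2 is at 0 in control cells and at 61.5 and 65.5 in depleted cells.

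The genes whose level over the 8 libraries ran most like that of MAGEB2 were named by Pearson's r, as a description, since the libraries fall into the lines that were compared. They were AEBP2 (r 0.999), LINC01602 (0.999), HKR1 (0.998), SMIM10L1 (0.998) and LINC01139 (0.998). AEBP2, a cofactor of the Polycomb complex PRC2, had means of 404 and 415 normalized reads in control cells and 1244 and 1205 in depleted cells. LINC01602 and LINC01139, which are non-coding, had 0 reads in control cells, with means of 17.9 and 22.6 and of 17.3 and 14.5 in depleted cells at 0 and 16 h. HKR1, a zinc finger gene, went from 116 and 120 to 282 and 292, and SMIM10L1 from 373 and 376 to 909 and 906. AEBP2 and SMIM10L1 lie on chromosome 12, where all 809 tested genes had median log2 depletion differences of 0.56 at 0 h and 0.54 at 16 h.

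MAGEB2 was 1 of 11 genes, of 18934 with a read, that had 3 reads or fewer in each control library and 10 or more in each depleted library. The reverse pattern was found in 13 genes. Of the 11, 4 had 0 reads in all control libraries, 3 lay on chromosome 12, and 2 lay on chromosome X, MAGEB2 and HDX. By mean level in depleted cells the first was HBB, a globin gene (206 normalized reads), then MAGEB2 (102), the calcium channel gene RYR2 (57.8), LOC101927023 (56.0) and the monocarboxylate transporter gene SLC16A7 (35.6). Per kb MAGEB2 (63.5) was below HBB (332) and LOC101927023 (79.2) and above RYR2 (3.56) and SLC16A7 (2.98).

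Other germline and cancer-testis genes were read from a list of 69, of which 67 were in the table, 49 had no read and 6 were tested. Their sum was 916, 951, 966 and 876 normalized reads in the control libraries and 1402, 1438, 1473 and 1557 in the depleted ones, and PASD1, an X-linked testis antigen gene, gave 88.3% of it. PASD1 had 810, 836, 883 and 782 in control libraries and 1240, 1227, 1295 and 1387 in depleted libraries, with no overlap between the lines. Its log2 depletion difference was 0.58 at 0 h (limma adjusted p 5.2e-06) and 0.69 at 16 h (adjusted p 7.1e-07), both under 2-fold, beside local medians of −0.08 and −0.09. Unlike MAGEB2, PASD1 was already well expressed in control cells.

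On depletion 1 of these 6 genes was called higher and 2 lower at 0 h, and 3 higher and 1 lower at 16 h, beside 15.4% and 15.2% of all tested genes called in either direction. EdgeR called 3 and 4 of the 6 and DESeq2 called 2 at each time. The median log2 differences of the 6 were 0.52 and 0.98 against 0.03 and −0.01 over all genes. PIWIL1, a piRNA-binding protein gene on chromosome 12, was called at both times (log2 2.14, limma adjusted p 0.00016, and 1.66, adjusted p 0.0016), rising from 4.54 to 7.11 normalized reads in control libraries to 23.5 to 27.4 in depleted ones. ACTL8 was lower (−1.53 and −1.32). Its 0 h call was lost without control 0 h A (−0.70) or depleted 0 h B (−1.31), and its 16 h call without control 16 h A (−1.05), control 16 h B (−1.59), depleted 0 h A (−1.32), depleted 16 h A (−1.26) or depleted 16 h B (−1.38). The 16 h call of ACTL8 was also lost with no filter (adjusted p 0.080), a minimum mean of 10 (0.054), a pseudocount of 0.1 (0.077) and DESeq2 (0.11), against limma's adjusted p of 0.047. STK31 was lower at 0 h (−1.34, local median −0.92), a call lost without control 0 h B (−0.85), depleted 0 h A (−1.42) or depleted 0 h B (−1.26), with a pseudocount of 0.1 (−1.5) or 5 (−0.92) and by DESeq2 (−1.57). TEX15 was higher at 16 h (1.28, limma adjusted p 0.00022), below 2-fold without control 16 h A (0.93), and at 0 h (0.90) it was called only without control 0 h B (1.07) or depleted 0 h A (1.2). TEX14 was higher at 16 h (2.63, limma adjusted p 0.0058), a call lost without control 16 h B (0.99) and by DESeq2 (1.93, adjusted p 0.063). Without control 16 h A the TNF-α change of TEX14 in control cells (−2.87) and its interaction (3.81) passed. For TNF-α none of the 6 was called by limma, edgeR or DESeq2 in either line, with 1 at an unadjusted p under 0.05 in control cells and 0 in depleted cells, and the interaction passed in 0 by all 3 tools, with 0 at an unadjusted p under 0.05.

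Whether the depleted cells carried other germ cell transcripts was checked with 8 markers of male germ cells, the cells in which MAGEB2 is normally active. DDX4, DAZL, MAEL, SYCP1, TEX101 and ZBTB16 were at 0 in all libraries, and the summed level was 0 in 6 libraries and 2.52 and 1.23 normalized reads in depleted cells at 16 h, 67.2% of it from STRA8. Melanocyte markers, read because melanomas often express MAGE genes, had MLANA and TYR at 0, with 2 of 5 tested. Their sum moved with MAGEB2, from 75.5, 59.1, 67.7 and 79.7 in control libraries to 259, 262, 323 and 299 in depleted libraries, and 90.9% of it came from MITF. MITF was higher by log2 2.14 at 0 h (limma adjusted p 4.9e-09) and 2.19 at 16 h (adjusted p 3.6e-09), beside local medians of 0.55 and 0.39 on chromosome 3. PMEL, the other tested marker, had 15.2, 10.6, 8.70 and 9.96 in control libraries and 22.1, 21.9, 17.6 and 18.5 in depleted ones. It did not pass limma's adjusted p at either time. The part of such cells in the MAGEB2 signal was not tested.

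Fibroblast markers also moved, with DCN at 0 and a sum of 38.5, 39.4, 31.9 and 28.5 in control libraries, 158 and 177 in depleted cells at 0 h and 56.2 and 59.2 at 16 h, 69.9% of it from COL1A1. Of 2 tested, PDGFRB (log2 3.53, limma adjusted p 9.9e-07) and COL1A1 (1.51, adjusted p 3.1e-05) were called higher on depletion at 0 h and 0 of 2 at 16 h by limma, edgeR and DESeq2, with 1 at an unadjusted p under 0.05 there. COL1A1 was called at 16 h without control 16 h A (1.01). Leukocyte markers had PTPRC at 0 and sums of 40.6, 24.2, 16.4 and 11.4 in control libraries and 30.2, 23.3, 12.6 and 11.1 in depleted ones, 70.4% from CD14, and overlapped between the lines. LYZ was called higher on depletion at 0 h (1.63, limma adjusted p 0.026), a call lost without control 0 h A (1.61), control 0 h B (1.66) or depleted 0 h A (1.22), with a pseudocount of 0.1 (1.89) and by DESeq2 (2.01). CD14 went the other way at 0 h (−0.89, limma adjusted p 0.079) and was called lower by edgeR (−1.11, adjusted p 0.011). With TNF-α CD14 was called lower in control cells (−1.21, limma adjusted p 0.037), a call lost without control 0 h A (−0.86), control 16 h A (−1.36), control 16 h B (−1.06), depleted 0 h A (−1.21) or depleted 0 h B (−1.21), with no filter (−1.21), with a pseudocount of 0.1 (−1.27) or 5 (−1.0) and by DESeq2 (−1.28). The part of fibroblasts or leukocytes in the MAGEB2 result was not tested.

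Silencing of germline MAGE genes rests on DNA methylation and on chromatin repressors, and 41 of a list of 42 such genes were tested, DNMT3L having no read. On depletion limma called 3 at each time, beside 15.4% and 15.2% of all tested genes, and all 3 were higher. By adjusted p alone 15 were higher and 5 lower at 0 h, and 15 were higher and 4 lower at 16 h, where 4035 of all 14800 tested genes were higher and 3736 lower at 0 h and 3678 were higher and 3915 lower at 16 h. The list had median log2 differences of 0.15 and 0.11 against 0.03 and −0.01 over all genes. At 0 h these were the DNA demethylase gene TET2 (log2 1.10, limma adjusted p 1.3e-06), the thymine glycosylase gene TDG (1.10, adjusted p 1.3e-06) and ATF7IP, a cofactor of the SETDB1 methyltransferase (1.25, adjusted p 3.2e-10). At 16 h they were TDG (1.42, limma adjusted p 4.8e-08), ATF7IP (1.22, adjusted p 3.8e-10) and TET3 (1.03, adjusted p 4.5e-07). TET3 fell below 2-fold without control 16 h B (0.89) or depleted 16 h B (0.94), and was not called by edgeR, and at 0 h (0.83) it was called only without control 0 h B (1.02). The local medians at 0 h were 1.07 for ATF7IP and 0.71 for TDG, both on chromosome 12, and 0.13 for TET2.

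DNMT1, which maintains DNA methylation and is the enzyme best known for holding MAGE promoters silent, had a log2 depletion difference of 0.04 at 0 h (limma adjusted p 0.66) and 0.11 at 16 h (adjusted p 0.25). UHRF1, which guides DNMT1 to replicated DNA, had 0.06 (limma adjusted p 0.55) and 0.35 (adjusted p 0.0013). Other genes of the list were lower in depleted cells, namely TRIM28 (values with the partners), EZH2 and HDAC3 at both times, MBD3 and HDAC1 at 0 h and MPHOSPH8 at 16 h. EZH2, the Polycomb methyltransferase gene, had 1025, 1098, 812 and 855 normalized reads in control libraries and 619, 646, 635 and 605 in depleted libraries, all below the control ones. Its log2 depletion difference was −0.75 at 0 h (limma adjusted p 2.9e-07) and −0.43 at 16 h (adjusted p 0.00017), under 2-fold. EZH2 lies on chromosome 7, where all tested genes had median differences of −0.63 and −0.64. The part of any of these genes in the MAGEB2 result was not tested. TNF-α lowered TET1, which was called in control cells (log2 −1.07, limma adjusted p 0.024) and in depleted cells (−1.45, adjusted p 0.0034). The control call was lost without control 0 h A (−1.1), control 0 h B (−1.04) or control 16 h B (−0.91), with no filter (adjusted p 0.057), with a pseudocount of 5 (−0.89) and by DESeq2 (−1.05, adjusted p 0.18), and the depleted call without depleted 0 h B (−1.18, adjusted p 0.075). The interaction passed in 0 of the 41 by limma, edgeR and DESeq2, with 3 at an unadjusted p under 0.05.

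Partners of MAGE proteins were read from a list of 26, of which 25 were in the table, 21 were tested and SLC12A1 had no read. TRIM28, a corepressor and ligase that several type I MAGE proteins bind, had 8516, 8335, 9002 and 8463 normalized reads in control libraries and 5333, 5369, 6102 and 6357 in depleted libraries. All depleted libraries were below all control libraries, by log2 −0.65 at 0 h (limma adjusted p 2.1e-07) and −0.49 at 16 h (adjusted p 7.7e-06), under 2-fold. On depletion limma called 2 of the 21 at 0 h and 4 at 16 h, beside 15.4% and 15.2% of all tested genes. HUWE1, an E3 ligase, was called lower at 16 h (−1.06, limma adjusted p 9.5e-10). LNX1, a ligase that binds MAGEB18, had 0 reads in both control libraries and 8 and 1 reads in depleted libraries at 16 h, at least 1.11-fold higher against the floor. It was called (fitted log2 2.05, limma adjusted p 0.043), a call lost without control 0 h A, control 0 h B, control 16 h A, control 16 h B or depleted 0 h B (2.05 each) or depleted 16 h A (1.16), with a pseudocount of 5 (0.77) and by DESeq2 (4.25, adjusted p 0.065). The median depletion difference of the list was 0.10 at 0 h and −0.03 at 16 h, against 0.03 and −0.01 over all genes.

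NGFR and UNC5A encode receptors that MAGED1 binds. NGFR was called higher on depletion at 0 h (log2 1.00, limma adjusted p 2.8e-08), below 2-fold without control 0 h A (0.97) or depleted 0 h A (0.94), with median-ratio scaling (0.98) and by edgeR (0.98) and DESeq2 (0.99), and at 16 h (1.29, adjusted p 1.1e-09). TNF-α lowered NGFR by −0.87 in control cells (limma adjusted p 4.5e-07) and −0.59 in depleted cells, both under 2-fold, and without control 16 h A the first was called (−1.03) and its interaction passed (0.44). UNC5A was lower on depletion at both times (−1.56, limma adjusted p 5.7e-05, and −2.96, adjusted p 2.5e-08) and higher with TNF-α in control cells (1.35, adjusted p 0.00065), with a change of −0.05 in depleted cells (adjusted p 0.91). It was the 1 partner of 21 called for TNF-α in control cells, and 0 were called in depleted cells by limma, edgeR and DESeq2, with 9 at an unadjusted p under 0.05, beside 7.24% and 6.36% of all tested genes called. MAGED1 itself fell with TNF-α in both lines. The list's median TNF-α change was 0.12 in control cells and 0.00 in depleted cells.

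Known p53 target genes were read to place these differences beside those of the p53 pathway, and all 20 were tested. On depletion 1 was called higher and 1 lower at 0 h, TIGAR (log2 1.27, limma adjusted p 6.4e-09) and SFN (−1.45, adjusted p 4.9e-11), and the list's median was −0.27. At 16 h 2 were called higher and 1 lower, with a median of −0.23, where 15.4% and 15.2% of all tested genes were called at 0 and 16 h. EdgeR and DESeq2 each called 3 of the 20 at 0 h and 3 at 16 h. By limma adjusted p alone 4 were higher and 9 lower at 0 h and 6 higher and 9 lower at 16 h, where 4035 of all genes were higher and 3736 lower and 3678 were higher and 3915 lower. Those called by limma at 16 h were TIGAR (1.38), MDM2 (1.03, 0.94 without control 16 h A) and BBC3 (−1.03, −0.86 without control 16 h A and under 2-fold with a pseudocount of 5). TIGAR and MDM2 lie on chromosome 12, where the 809 tested genes had medians of 0.56 and 0.54. The local medians at 0 and 16 h were 0.93 and 0.87 for TIGAR and 0.67 and 0.63 for MDM2. They were −0.25 and −0.17 for SFN and −0.45 and −0.47 for BBC3. For TNF-α 0 were called by limma in either line, with 13 at an unadjusted p under 0.05 in each, beside 7.24% and 6.36% of all tested genes called. By adjusted p alone 4 were higher and 5 lower in control cells and 6 higher and 4 lower in depleted cells, where 1648 of all genes were higher and 2243 lower and 1451 were higher and 2506 lower. With median-ratio scaling 2017 of all genes were higher and 1933 lower in control cells. In depleted cells 2059 were then higher and 2008 lower. EdgeR and DESeq2 each called 2 of the 20 p53 targets in control cells and 1 in depleted cells.

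**Figure D5:**
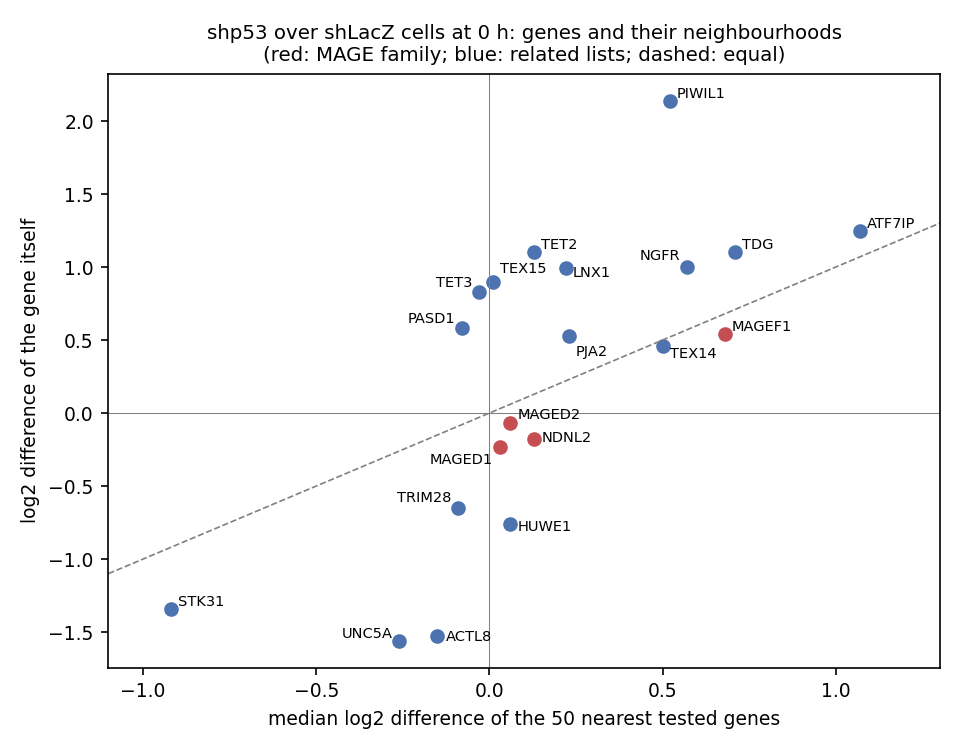
Log2 depletion difference at 0 h of single genes (vertical axis) against the median of the 50 tested genes nearest to each (horizontal axis), for MAGE family genes (red) and genes of the related lists (blue), with a dashed line where both are equal. MAGEF1 (0.54 beside 0.68) lies near the line and PASD1 (0.58 beside −0.08) and PIWIL1 (2.14 beside 0.52) lie above it, and MAGEB2, with control libraries at 0, is not drawn.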

How the data were processed

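The deposited table holds signal values per gene that the authors made by aligning reads with STAR and counting exon reads with HOMER, scaled to an equal total per library (the versions were not given in the sources used here). The file header names build hg19 and the paper's methods name hg38. Each column was divided by the value of 1 read, and 100% of values were then whole within 0.1 read. Log2(value + 1) was fitted with limma (trend) over all genes whose mean reached 2.5, with Benjamini-Hochberg adjustment over all of them, and edgeR and DESeq2 were run on the recovered reads. Alternatives were median-ratio scaling, no filter, a higher minimum mean of 10, a pseudocount of 0.1 or 5, replicate as a block, both other tools, and leaving out each library in turn. With 1 library left in a group, that library is assumed to vary like the others. The replicate letters come only from the column names. Genes were named by rule. Named were the listed genes and their tested relatives, and the genes called in each list where at most 6 were called in a contrast. Otherwise the 3 with the largest change in each direction were named. So were the 2 most abundant genes of each list and the cell type markers at 0. The genes within 1 Mb of MAGEB2 and the 5 most like it were added. So were the top 5 with 3 reads or fewer in each control library and 10 or more in each depleted one. The rule also picks KDM5C, TNFRSF10B, KRT18, CXCL8, CCL20 and TRAF1, for which no value is given. Family genes that were not tested, STRA8, SLC12A1 and DNMT3L are named outside the rule. HDX, DNMT1, UHRF1, KRT19, EZH2, HDAC1, HDAC3, MBD3, MPHOSPH8 and NFKBIA were named after their values were seen. The members and lists were chosen with earlier results of these data known. The authors' own columns for 4 comparisons were not used, nor were the GRO-seq and ChIP-seq data. Promoters came from RefSeq and transcripts from GENCODE 44. The fits were tested on simulated data, the outcome of which is not given here. Versions were R 4.3.3, limma 3.58.1, edgeR 4.0.16, DESeq2 1.42.0, Python 3.11.15, numpy 2.4.6, pandas 2.3.3 and matplotlib 3.10.9.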

Additional observations from a re-analysis of the deposited data

Results flagged for a closer look

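The genes below had a depletion difference that changed between 0 and 16 h of TNF-α in the limma interaction test, which 2.86% of all tested genes (424 of 14800) passed. Most were named because they were called in some contrast, this one included, so their number is no result. No MAGE gene was among them, and values below are the log2 difference at 16 h less that at 0 h. The MAGE partner PJA2 stood at −0.55 (adjusted p 0.033), and the call was lost without control 0 h A (−0.46), control 16 h B (−0.48), depleted 0 h A (−0.49), depleted 0 h B (−0.62), depleted 16 h A (−0.51) or depleted 16 h B (−0.60), with no filter (adjusted p 0.061), with a pseudocount of 0.1 (0.053) and by DESeq2 (0.099). The netrin receptor gene UNC5A stood at −1.40 (adjusted p 0.046), and the call was lost without any 1 library other than depleted 16 h A, with values from −1.65 to −1.15, with median-ratio scaling (adjusted p 0.053), with no filter (0.11), with a pseudocount of 0.1 (0.075), by edgeR (0.062) and by DESeq2 (0.14). The p53 targets GADD45A and SFN stood at 1.00 (adjusted p 0.0038) and 0.87 (adjusted p 0.00015). The NF-κB targets BIRC3 and TNFAIP2 stood at −2.84 (adjusted p 1.5e-05) and −2.66 (adjusted p 2.1e-10). The NF-κB targets IL32 and LTB stood at −2.26 (adjusted p 0.00074; 0.079 by DESeq2) and −5.71 (adjusted p 0.00017). The NF-κB targets NFKB2 and RELB stood at −0.93 (adjusted p 6.7e-05) and −0.89 (adjusted p 0.0052). TNFAIP3, an NF-κB target, stood at −1.95 (adjusted p 0.011), and the call was lost without control 0 h A (−1.73), control 16 h A (−1.90) or control 16 h B (−1.99) and with no filter (adjusted p 0.053). ICAM1, an NF-κB target, stood at −0.80 (adjusted p 0.040), and the call was lost without control 0 h A (−0.83), control 0 h B (−0.77), control 16 h A (−0.61), depleted 0 h A (−0.52) or depleted 16 h B (−0.64), with no filter (adjusted p 0.12), with a pseudocount of 0.1 (0.093) and by DESeq2 (0.38). NFKB1, an NF-κB target, stood at −0.46 (adjusted p 0.034), and the call was lost without any 1 library other than depleted 0 h A, with values from −0.49 to −0.35, with median-ratio scaling (adjusted p 0.052), with no filter (0.065), with a pseudocount of 0.1 (0.055) and by DESeq2 (0.089). The fibroblast marker PDGFRB stood at −2.81 (adjusted p 0.0099), and the call was lost without depleted 0 h A (−2.82, adjusted p 0.072) or depleted 0 h B (−2.81, adjusted p 0.079) and by DESeq2, which gave no adjusted p (−2.98). NFKBIA, the 1 other NF-κB target that passed, was outside the naming rule and was added after its value was seen (−1.43, adjusted p 2.6e-05).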

How the results depend on the processing

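The counts of genes called in each comparison, for all genes and for the MAGE family, were recomputed under each alternative. So were the counts of MAGE family genes lower with TNF-α by adjusted p. Of these counts, 187 stayed within a set ratio of the main count and 5 moved beyond it. The genes called for the interaction, 424 with all libraries, ranged from 208 to 421 when 1 library was left out, and were 559 with replicate as a block, a pairing that rests on column letters alone (the A less B deviations of different groups correlated at −0.02 to 0.07). With no filter 2 MAGE family genes met the call rule for depletion at 16 h, MAGEB2, which was chosen for this difference and is no test, and MAGEB17 (log2 −1.78, adjusted p 0.030), which had at most 4 reads in a control library and 0 in depleted cells at 16 h. The cause of the other moves was not tested. Among other results 6582 were the same, 142 lost a call, 20 gained one and 124 moved, and no called value changed sign. A move was a level shifted by more than the replicate SD or a depletion difference of a listed gene shifted by more than its SE. For the number of genes called in a list, it was a change beyond a set ratio. The TNF-α falls of MAGED1 and MAGED2 passed adjusted p under all 16 alternatives, with log2 changes of −0.74 to −0.54 (control) and −0.49 to −0.38 (depleted) for MAGED1 and −0.36 to −0.30 and −0.72 to −0.56 for MAGED2. The fitted depletion difference of MAGEB2 ran from 4.37 to 9.94 at 0 h and from 4.46 to 10.04 at 16 h over the settings, since its control libraries were at 0, so only its lower bound is given. Groups of 2 libraries limit all tests.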
